A study of Arabidopsis thaliana with 3 samples.

Results

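FBH1, FBH2, FBH3 and FBH4 are the FLOWERING BHLH genes of Arabidopsis thaliana, which encode basic helix-loop-helix (bHLH) transcription factors that activate CO. The 4 genes were found by symbol in a table of 27444 nuclear protein-coding genes, and the sites of JMJ28 inside them or within 1000 bp of either end were taken from a genome-wide list of 18368 nuclear summits. This rule gave 4 summits, 2 at FBH1 and 1 each at FBH3 and FBH4, and none at FBH2. A summit is the 1 bp position where a peak of the chromatin immunoprecipitation sequencing (ChIP-seq) signal was highest.

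The list was made from Col-0 seedlings carrying JMJ28, a JmjC-domain histone demethylase, fused to a 3xFLAG tag and driven by its own promoter (JMJ28pro::JMJ28:3xFLAG). All plants carried this transgene, were 14 days old when harvested, and had been kept at 22 °C under long-day light. They gave 2 replicate ChIP libraries and 1 input library. Untagged plants were not analysed here, so DNA that came down without JMJ28 cannot be told apart from its sites. Per the labels, DNA was pooled to have enough material for a library. The labels do not say whether the endogenous JMJ28 gene was also present. The values are 1 list for the whole series, with no value per library, so no spread between replicates could be given and no difference below was tested.

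FBH proteins bind E-box elements in the promoter of CO and raise its transcription, and CO in turn activates the mobile flowering signal FT in long days. The study treats them as partners of JMJ28, which acts on methylated lysine 9 of histone H3, a mark of silent chromatin. FBH3 and FBH4 are also known as AKS1 and AKS3, substrates of an abscisic acid-responsive kinase in guard cells, where AKS factors activate genes of inward potassium channels. The summits below are places in or near the FBH genes where DNA was recovered with tagged JMJ28, and they say nothing of where FBH proteins bind. Each summit has a score, the authors' −log10 of a p-value or q-value, which measures strength of evidence and not an amount of bound protein. Over all nuclear summits the median score was 9.07, with an interquartile range of 5.10 to 18.4. JMJ28 itself had 1 summit, 49 bp inside an end of the gene, whose score of 1443 ranked 3rd in the nucleus. The transgene carries JMJ28 sequence, and its part in this score was not tested.

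JMJ28 summits were found at 3 of the 4 FBH genes (exact 95% interval of this share 19.4 to 99.4%, covering counting error only). The background was high, since 65.4% of all protein-coding genes had a summit by the same rule. The FBH genes were alike in length, at 2366 to 2500 bp, and among the 2346 protein-coding genes of 2300 to 2600 bp the share was 74.3%. A count of 3 in 4 is close to these shares and is no result about the FBH genes as a group. The position and the strength of their summits differed more. FBH4 had the highest score (51.5), followed by FBH3 (11.6) and FBH1 (7.64 and 5.58). With no replicate values, whether these 3 genes differ in their order beyond error cannot be said.

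**Figure D1:**
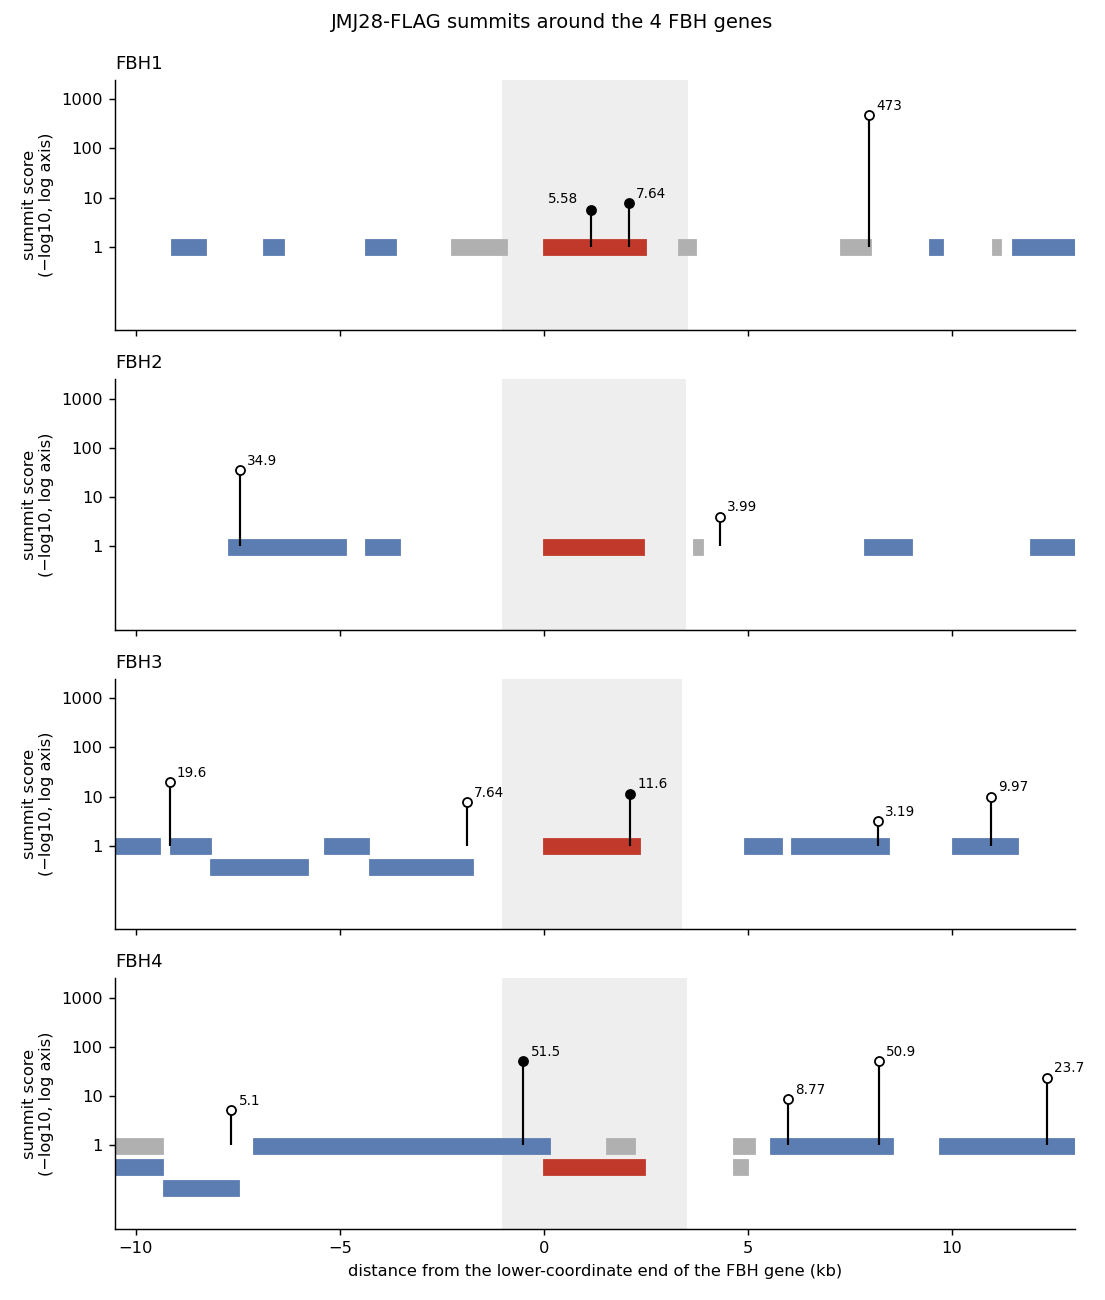
Summits of JMJ28 within 10 kb of each FBH gene, plotted by distance from the end of the gene at the lower coordinate (kb) and by score (−log10, log axis); filled points are counted for the FBH gene, open points are not, and grey shading marks the gene and 1000 bp on each side. Bars, placed at arbitrary heights, are the FBH gene (red), other protein-coding genes (blue) and other annotated genes (grey); the FBH4 summit of 51.5 lies in the neighbouring blue gene, and the nearest summit of FBH2 (3.99) lies outside the shading.

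FBH1 (AT1G35460) carried a pair of weak summits, both within the gene. They lay at positions 13040809 and 13041739 of chromosome 1 (TAIR10), with scores of 5.58 and 7.64. The second was above 42.8% of nuclear summits and the first above 27.7%, so both fell below the median. A highest score at or above that of FBH1 was found at 48.0% of protein-coding genes. With 2 summits FBH1 was among the 29.8% of protein-coding genes that had 2 or more by the same rule, and among the 11.4% that had 2 or more inside. Among the 2817 genes with exactly 2 inside, the highest score within 1000 bp had a median of 16.1, and 84.2% of them scored at or above FBH1. Summits in the flanks of these genes enter that score, whereas FBH1 had none in its flanks. The 2817 genes were of all lengths, and gene length limits the spacing of summits. Spacing was not compared among genes of similar length. The median spacing was 1960 bp, and 9.16% of the 2817 genes had one no longer than the 930 bp between the summits of FBH1. The stronger one lay 420 bp inside the end at the higher coordinate. The weaker one was 1149 bp from the nearer end, close to the middle of the gene, and 94.1% of the 16203 summits inside protein-coding genes lay as near to a gene end or nearer. Gene length limits this distance too, and the median length of all protein-coding genes was 2078 bp, so many could hold no summit this far from both ends. The gene table gives no strand, so transcription starts and transcript ends were not told apart.

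FBH3 (AT1G51140) had a single summit, near one end of the gene. It lay at position 18945561 of chromosome 1, 251 bp inside the end at the higher coordinate, and scored 11.6, above 58.9% of nuclear summits. A highest score at or above this was found at 37.8% of protein-coding genes. Of all summits inside protein-coding genes, 42.4% were as near to a gene end. Among the 5830 genes whose only summit lay inside them, the median score was 10.6, and 47.7% scored at or above FBH3. No other annotated gene lay within 1000 bp of FBH3, so no neighbour shares this summit. The next summit, 1886 bp away (score 7.64), lay inside the neighbouring gene AT1G51130.

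FBH4 (AT2G42280) had the strongest summit of the 4 genes, but outside the gene. It lay at position 17610679 of chromosome 2, 506 bp beyond the end at the lower coordinate, and scored 51.5, above 94.2% of nuclear summits. Only 6.26% of protein-coding genes had a highest score this high. This position is inside AT2G42270, a protein-coding gene of 7258 bp that overlaps FBH4 by 149 bp, and it lay 654 bp from the nearer end of that gene. It was the only summit inside AT2G42270, and there was none inside FBH4. A summit can thus be counted for both genes, and the list does not tell to which of them it belongs. Such cases were common. Of the 4850 protein-coding genes with summits in their flanks alone, 3575 (73.7%) had the highest one inside another protein-coding gene. Their median highest score was 12.2, and 9.51% scored at or above FBH4.

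FBH2 (AT4G09180) had no summit within 1000 bp. The nearest lay at position 5851619 of chromosome 4, 1856 bp beyond the end at the higher coordinate and outside any annotated gene. Its score of 3.99 was above only 14.3% of nuclear summits. A distance this large or larger was found at 27.7% of protein-coding genes. Counted with flanks of 2000 bp, FBH2 therefore also had a summit, as did 73.3% of protein-coding genes. A missing summit means that none was called at the depth of these libraries, which is unknown here, and does not show that JMJ28 was absent. Whether reads of FBH2 and its relatives could be placed uniquely was not examined.

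**Figure D2:**
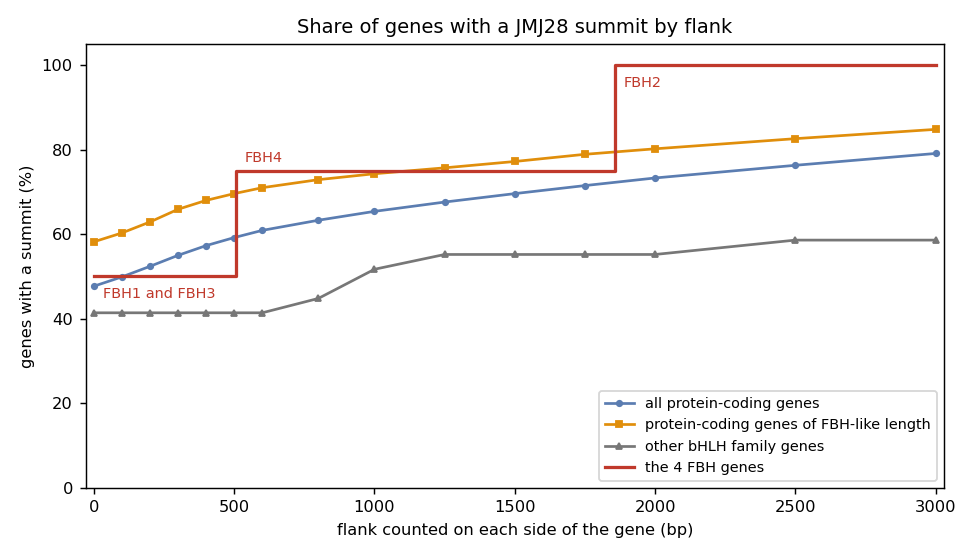
Share of genes with a JMJ28 summit (%) against the flank counted on each side (bp), for the 4 FBH genes (red steps), all protein-coding genes (circles), those of 2300 to 2600 bp (squares) and the other bHLH family genes (triangles). FBH1 and FBH3 had a summit with no flank, FBH4 from 506 bp and FBH2 from 1856 bp.

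The flank decided which FBH genes were counted. With summits inside the gene only, FBH1 and FBH3 remained, 2 of 4, against 47.7% of all protein-coding genes and 58.2% of those of similar length. The same 2 genes were counted with flanks of 500 bp (background 59.2%). When each summit was given to its nearest gene only, these 2 were counted and the FBH4 summit went to AT2G42270 (background 50.5%). With the upper 50% of scores, FBH3 and FBH4 were counted and FBH1 was not (background 43.8%).

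The 4 genes lie in unlike surroundings. FBH1 is in a stretch of chromosome 1 that is poor in genes and in summits: of the 71 other protein-coding genes within 250 kb, 14 (19.7%) had a summit. At FBH2 these numbers were 35 of 87 (40.2%), at FBH3 82 of 130 (63.1%) and at FBH4 99 of 137 (72.3%). Over all protein-coding genes the median share was 69.9%, with an interquartile range of 56.6 to 78.3%. FBH1 thus carried its summits where few other genes did, since only 2.46% of protein-coding genes had a lower share around them, and FBH2 lacked one where most genes lacked one (9.32% had a lower share). FBH3 and FBH4 lay nearer to the typical share. Close neighbours also differed. FBH2 and FBH3 had no other annotated gene within 1000 bp, and of the 260 protein-coding genes of similar length for which this held, 41.5% had a summit, with a median highest score of 9.67. FBH1 and FBH4 had such a neighbour, and of the 2086 genes of similar length with one, 78.3% had a summit, with a median highest score of 14.6.

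**Figure D3:**
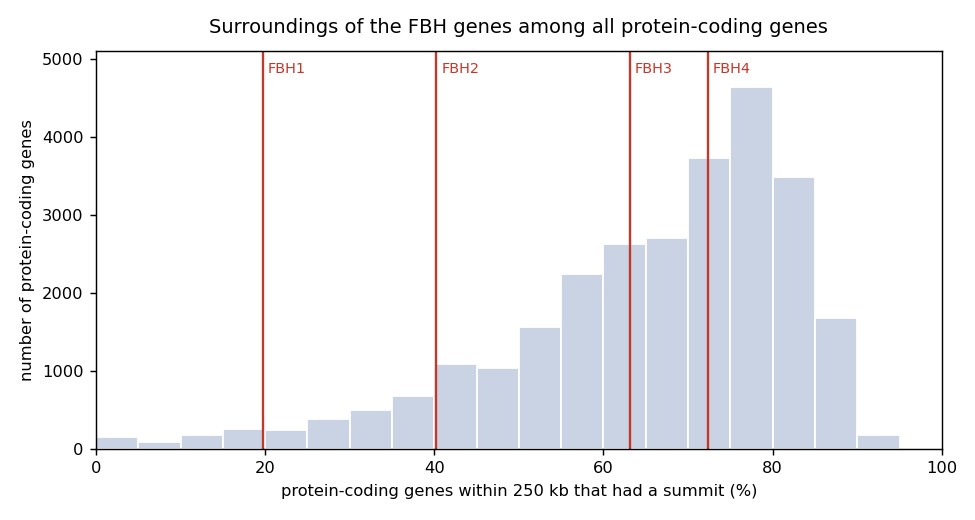
Number of protein-coding genes (bars, 5% steps) by the share of other protein-coding genes within 250 kb that had a summit (%), with the 4 FBH genes as red lines. FBH1 (19.7%) and FBH2 (40.2%) lie in the low tail, FBH3 (63.1%) and FBH4 (72.3%) near the bulk of genes.

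AKS2 (AT1G05805), the remaining gene of the AKS series, had no summit within 1000 bp, and the nearest lay 6243 bp away with a score of 15.7. AT2G43140, listed with it but unnamed in the gene table, resembled FBH4 in arrangement. Its only summit (score 9.97, position 17930785 of chromosome 2) lay 469 bp outside it, inside the neighbouring gene ARA4. Of these 6 genes, 2 had a summit inside the gene (FBH1 and FBH3), 2 had one in a flank within another gene, and 2 had none. Over all protein-coding genes 47.7% had a summit inside and 65.4% had one within 1000 bp, so these counts are near the background.

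Other bHLH genes were found by name in the table, where 29 genes besides the FBH genes carry a bHLH symbol or synonym. This leaves out bHLH factors named otherwise, such as the PIF and MYC genes. It also leaves out AKS2 and AT2G43140, the genes set beside the FBH genes above. Of the 29, 15 had a summit (51.7%, exact 95% interval 32.5 to 70.6), against 65.4% of all protein-coding genes. The 15 had a median highest score of 25.5, against 13.6 over all protein-coding genes with a summit. CIB4, a cryptochrome-interacting bHLH factor, scored highest (147, position 3306010 of chromosome 1, inside the gene). It was followed by bHLH115, a regulator of iron uptake, and IBH1, a repressor of cell elongation, which both scored 63.3, and then by FBH4. BHLH101, an iron-deficiency factor, and bHLH11 came next at 34.9 and 34.4. Among the 18 genes found by name that had a summit, FBH4 was thus 4th, FBH3 12th and FBH1 15th. AT2G43140 (9.97) was not ranked, though its score lies between those of FBH3 and FBH1. The highest summits of bHLH115, FBH4 and BHLH101 lay outside the gene, by 774, 506 and 931 bp. These ranks therefore rest in part on summits in flanks, which may belong to other genes. The genes next to FBH3 in score were AT3G07340 (also called CIB3, 16.9) and AIB (11.2), and those next to FBH1 were CIB5 (7.92) and bHLH121 (6.58). These distances in score rest on 1 list and were not tested.

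The CIB factors are the other bHLH activators of photoperiodic flowering, acting with the blue-light receptor CRY2 on FT. Of the 4 CIB genes listed, CIB1, CIB4 and CIB5 had summits and CIB2 had none, beside 65.4% of all protein-coding genes. AT3G07340, which the table also names CIB3, was not on that list and had a summit as well, inside the gene. CIB1 scored 31.5 and CIB5 7.92, both with the highest summit outside the gene. Unlike FBH4, each also had at least 1 summit inside.

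**Figure D4:**
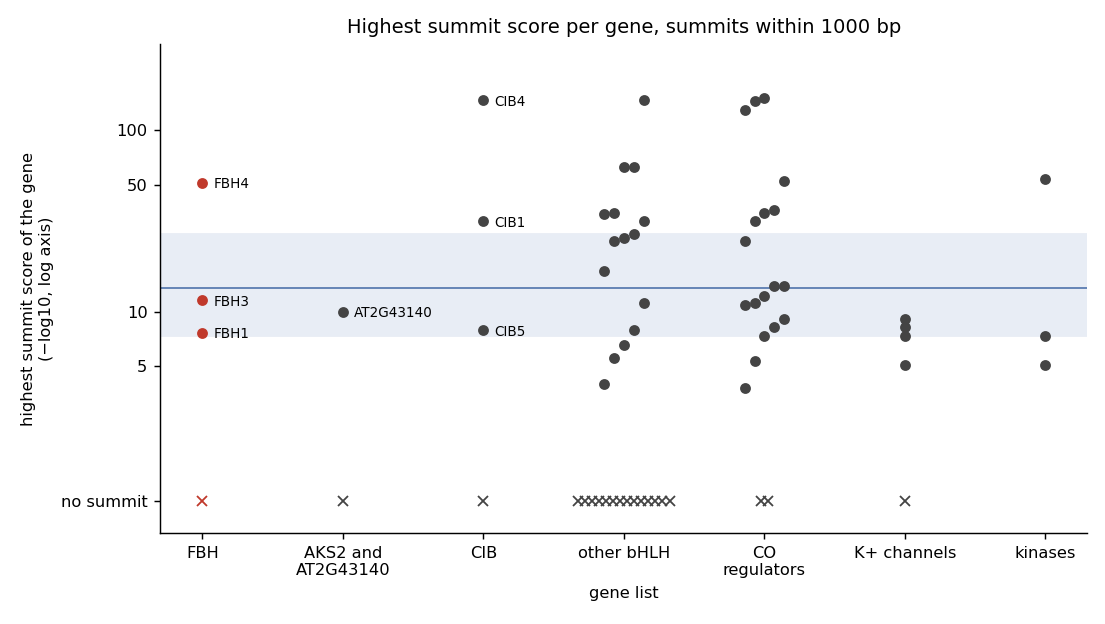
Highest summit score of each gene within 1000 bp (−log10, log axis) by gene list, with crosses for genes without a summit; the blue line and band are the median and the interquartile range over all protein-coding genes with a summit. FBH4 (51.5) lies above the band, FBH3 (11.6) and FBH1 (7.64) within it, and FBH2 has a cross.

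The wider list of 20 genes around CO holds CO itself, genes that control it or act with it, and FT, which CO activates. Of these 20 genes, 18 had a summit (90.0%, exact 95% interval 68.3 to 98.8). The share was 65.4% over all protein-coding genes, below the interval, and 74.3% over those of FBH-like length, inside it. That length class was set from the FBH genes and not from this list. The list was chosen with earlier results of these data known, so the interval covers counting error only and is no test. The median highest score of the listed genes, 13.9, was close to the 13.6 over all protein-coding genes with a summit. CO, the target of the FBH factors, had 1 summit inside the gene with a score of 12.2, close to that of FBH3. This summit also lay inside AT5G15843, which overlaps CO. FT and AT2G34140 had none. The highest scores were at TCP2 (152), a TCP-class transcription factor gene, TPL (146), the co-repressor gene TOPLESS, and the F-box gene LKP2 (129.9). The summits of TCP2 and TPL lay inside the gene, but that of LKP2 lay 290 bp outside it. PFT1, which encodes the Mediator subunit MED25, scored 52.6, similar to FBH4. CDF1, a repressor of CO, scored 36.4, from a summit 740 bp outside the gene, and TCP10 scored 34.9. TCP4, described as acting with FBH factors at the CO promoter, had a summit of 24.6 inside the gene.

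The last lists hold potassium channel genes, linked to the AKS role of FBH factors in guard cells, and genes of kinases listed for FBH proteins. Of the 5 potassium channel genes, KAT1 (9.07), KAT2 (8.20), AKT2 (7.36) and KC1 (5.10) had one and AKT1 had none, beside 65.4% of all protein-coding genes with a summit. The 4 scores lay below the median highest score of 13.6, as do those of many genes, and no comparison was run. Those of KAT1 and KC1 lay outside the gene. All 3 kinase genes had a summit, beside the same 65.4% of all protein-coding genes. OST1, which signals abscisic acid in guard cells, scored 53.8, close to FBH4. The SnRK1 kinase genes KIN11 (7.36) and KIN10 (5.10, from a summit 34 bp outside the gene) scored near FBH1. These shared score values are partly a property of the list, in which only 748 distinct scores occur among the nuclear summits.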

How the data were processed

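ChIP-seq was made from JMJ28-FLAG seedlings, with 2 ChIP libraries and 1 input library. Reads were handled with Bowtie2 and MACS2 on TAIR10, per the submitters' processing notes. Versions, the threshold, how libraries were combined and how the input entered are not stated there. The authors deposited 18410 summits of 1 bp, each with a score on a −log10 scale that stands for a p-value or q-value, as the layout of a MACS2 summit list has it. The 42 chloroplast summits were left out. Depth per library is unknown.

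Gene names, types and extents came from an NCBI table of TAIR10.1. Summits shifted by up to 5000 bp in steps of 200 bp lay near gene ends most often at no shift on 5 of 5 chromosomes (share within 300 bp at least 52.7%, against at most 28.1% at the widest shifts). Only summit positions are printed, counted from 1. No sequence was used here. A gene was counted with a summit inside it or within 1000 bp, and its score is the highest of these. Similar length means 2300 to 2600 bp. JMJ28 was matched by locus. The members and lists, and the rule for named genes, were chosen with earlier results of these data known. That rule took the FBH genes, their neighbours at a summit, AKS2, AT2G43140, CO, FT, JMJ28, up to 6 top scores per list, and the bHLH genes next to each FBH gene in score. TCP4, CIB3 (AT3G07340) and values of weaker list members were named or given besides. No tests between genes were run. Counting was tested on simulated data. Counting used pandas 2.3.3 and numpy 2.4.6 in Python 3.11.15, intervals SciPy 1.17.1, and plots matplotlib 3.10.9.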

Additional observations from a re-analysis of the deposited data

How the results depend on the processing

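The alternatives planned were no flank, flanks of 500 or 2000 bp, the upper 50% of scores, and each summit given to its nearest gene only. Under these the number of FBH genes with a summit was 2, 2, 4, 2 and 2, against 3 with flanks of 1000 bp. In the same order the share of all protein-coding genes was 47.7, 59.2, 73.3, 43.8 and 50.5%, against 65.4%, so the background moved too. The number of bHLH family genes, FBH genes included, went from 18 (54.5%) to between 13 (39.4%) and 20 (60.6%). That of the genes around CO went from 18 (90.0%) to between 14 (70.0%) and 18. The highest scores of FBH1 and FBH3 were the same under all flanks and with the nearest gene only, FBH4 kept 51.5 at 2000 bp and had no summit with no flank, with 500 bp or with the nearest gene only, and FBH2 gained a summit of 3.99 at 2000 bp. The background share of 65.4% became 74.3% for genes of similar length and 41.5% for those of similar length with no other gene within 1000 bp, a pair of alternatives chosen after seeing the data. The cause was not tested. No paired analysis was possible because the data are 1 summit list with no values per library, and for the same reason no replicate could be left out.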

Other observations

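The strongest summit near any FBH gene was not counted for one. It lay 5461 bp beyond FBH1, at position 13047620 of chromosome 1, inside the pseudogene AT1G35465, with a score of 473. It ranked 12th among all nuclear summits and first among the 364 that lay more than 1000 bp from every protein-coding gene, whose median score was 7.78. The nearest protein-coding gene was 1494 bp away. It was the only summit besides the FBH1 pair within 10 kb of FBH1. Whether repeated sequence or extra copies of this region in the libraries bear on this score was not tested.

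Within 10 kb of FBH4 a further summit, at position 17619394 of chromosome 2 inside AT2G42290, scored 50.9, nearly as high as the one counted for FBH4. FBH3 and FBH4 each had 5 summits within 10 kb, FBH1 had 3 and FBH2 had 2, against a median of 4 over all protein-coding genes (interquartile range 2 to 6).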
